A study of Mus musculus with 2 samples.

Results

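The 10 genes Egr1, Egr2, Egr3, Ier2, Ier3, Ier5, Nr4a1, Nr4a2, Srf and Arc were followed in Hepa1-6, a mouse hepatocellular carcinoma cell line. They were picked by gene symbol from the 52636 genes of the count table, from an earlier reading of the same data, so their differences between libraries are a description and carry no test. Both lines, labelled with the strain C57bl/6, had been infected with lentivirus for 24 h and selected with 2 µg/ml puromycin. The control virus (Vector) brought in GFP and the puromycin marker, and the other line (IRF8-OE) is labelled as overexpressing IRF8 with the same markers. IRF8 is an interferon-responsive transcription factor of blood cells. The labels name neither a clone nor separate cultures, and each group had 1 library. Differences therefore have no replicate check, and every interval below covers counting error between these 2 libraries only.

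Immediate-early genes are transcribed within minutes of a stimulus such as serum, a growth factor or stress, without new protein synthesis. ERK and p38 kinase signalling reaches them through SRF, which binds CArG boxes with ternary complex factors such as ELK1, and through CREB, which binds cyclic AMP response elements. Many of them encode transcription factors, among them the EGR zinc-finger proteins and the NR4A orphan nuclear receptors, while Arc encodes a protein best known from synapses. In liver, EGR1 and NR4A1 are induced by injury, hormones and regeneration.

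The promoters were read first, because these genes are known for stimulus-responsive elements near their start sites. RefSeq windows (build GRCm38.p6, 250 bases before to 50 after the start site) were found for 6 of the 10 genes, Egr2, Ier3, Ier5, Nr4a1, Nr4a2 and Srf. A CArG box, the binding site of SRF, was present on either strand in the Srf and Egr2 windows and in 1.81% of all 27025 genes with a window. The windows of Srf, Egr2 and Nr4a1 are shown because they hold binding motifs of SRF and EGR proteins, which are themselves among the 10 genes. Capitals mark CArG boxes, the EGR sites GCGGGGGCG and GCGTGGGCG, the core TGACG of the cyclic AMP response element and the TATA box TATAAA, each on either strand.
Srf, chr17:46556113-46556412, minus strand: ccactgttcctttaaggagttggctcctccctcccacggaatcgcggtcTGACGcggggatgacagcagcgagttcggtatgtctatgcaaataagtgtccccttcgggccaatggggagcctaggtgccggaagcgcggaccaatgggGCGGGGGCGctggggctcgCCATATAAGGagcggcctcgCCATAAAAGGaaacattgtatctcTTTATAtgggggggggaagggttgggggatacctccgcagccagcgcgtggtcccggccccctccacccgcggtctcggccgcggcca
Egr2, chr10:67537619-67537918, plus strand: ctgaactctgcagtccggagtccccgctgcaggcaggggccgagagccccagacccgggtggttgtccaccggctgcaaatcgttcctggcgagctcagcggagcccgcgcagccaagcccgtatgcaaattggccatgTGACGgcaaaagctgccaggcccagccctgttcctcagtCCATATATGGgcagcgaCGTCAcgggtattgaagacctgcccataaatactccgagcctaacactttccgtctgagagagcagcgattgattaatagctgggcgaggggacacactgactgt
Nr4a1, chr15:101266596-101266895, plus strand: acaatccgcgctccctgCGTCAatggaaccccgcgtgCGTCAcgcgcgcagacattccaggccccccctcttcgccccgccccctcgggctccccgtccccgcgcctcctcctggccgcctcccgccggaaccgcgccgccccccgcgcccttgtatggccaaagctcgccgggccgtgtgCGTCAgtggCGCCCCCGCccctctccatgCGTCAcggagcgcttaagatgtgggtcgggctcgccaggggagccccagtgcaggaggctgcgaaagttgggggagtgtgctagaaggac

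The Srf window held 2 CArG boxes, which began at positions -82 and -62 from the start site, and an EGR site at -101. Egr2 had 5 annotated windows, of which 4 held a CArG box, at -72 in the window shown. These are 2 distinct boxes, since 3 of the windows overlap and share 1 of them. The Nr4a1 window held no CArG box but 4 TGACG cores, at -233, -213, -69 and -40, and an EGR site at -60. The core was also found in the windows of Srf, Egr2 and Nr4a2, and in 23.0% of all genes with a window. It was added to the search after the sequences had been seen. An EGR site of either form was present in 3.93% of all genes, against 8 of the 34 other primary response genes with a window (23.5%). A CArG box was present in 2 of these 34 (5.88%) and the core in 21 (61.8%). The full element TGACGTCA (2.03% of all genes) and the NR4A monomer site AAAGGTCA (1.70%) matched in none of the 6 genes. None of the motifs searched was found in the windows of Ier3 and Ier5. Windows differ in base composition and genes in their number of windows, so these shares are descriptions.

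Compact structure was shared by the genes, although the choice did not use it. The annotated span ran from 1.24 kb for Ier3 to 17.2 kb for Nr4a2, and all 10 lay below the median of 24.2 kb over 11086 measured protein-coding genes with an annotated transcript. For 9 of the 10 the span was under 10 kb, as for 23.3% of those genes. Ier2 and Ier5 each had a single exon in the longest transcript, as had 2.26% of those measured protein-coding genes. Egr1, Egr2, Egr3 and Ier3 had 2 exons, Arc 3, Srf 7, and Nr4a1 and Nr4a2 8 each, against a median of 9. AU-rich pentamers (ATTTA), found in many short-lived mRNAs, were densest in the 3′ untranslated region of Ier3, with 5 in 613 bases. Nr4a1 had 3 in 543 bases. Egr3 had the most, 7 in 2645 bases. Egr2 and Nr4a2 had 3 each, Egr1 and Ier5 2 each, Srf 1, and Ier2 and Arc 0, against a median of 2 per gene. The median density was 1.31 per kb over the measured protein-coding genes with such a region. Ier5 (0.933 per kb), Ier2 and Arc lay below it, and the others ran from 1.33 for Srf to 8.16 for Ier3.

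Counted reads totalled 18118017 in Vector and 20042660 in IRF8-OE. CPM are counts relative to the TMM-scaled library size, and 12468 genes had a mean of at least 1 CPM and are called measured. A gene is called lower or higher where its CPM differed by a factor of 2 or more and 1 lay outside the exact 95% interval for counting error. By this rule 3.64% of measured genes were lower in the IRF8-OE library and 4.27% higher, so that 54.0% of the calls were higher. Scaling by total counts moved that share to 66.1% and removal of the trend on expression level moved it to 41.6%. Irf8 itself had 1010 counts in Vector and 1486 in the library labelled IRF8-OE, a ratio of 1.22 (1.13 to 1.32) that did not reach the size rule. It is not known whether transgene reads entered these counts, so the ratio may not measure the overexpression, and IRF8-OE below names the library by its label. Among 10 hepatocyte and fetal liver markers, 7 were measured. Alb (3474 counts in Vector and 1571 in IRF8-OE) and Afp (4720 and 2662) were lower by the rule, and Ttr, Apoa1 and Serpina1a had at most 15 counts in either library. The summed level of the 10 markers was 1049 CPM in Vector and 553 CPM in IRF8-OE, and its part in the results below was not tested.

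Of the 10 genes, 9 were measured, and 5 of these were lower in the IRF8-OE library: Arc, Egr1, Ier2, Egr2 and Ier5. None was higher, all 9 ratios lay below 1, and the median log2 ratio was -1.05, against 0.01 over all measured genes. Nr4a1, Nr4a2, Srf and Ier3 did not reach the rule, and Egr3 had 0 counts in both libraries. The background share of lower genes was 3.64%, but the genes had been chosen with this contrast known, so nothing is read from the comparison. A lower count can come from fewer expressing cells or from less RNA per cell, which bulk libraries cannot tell apart.

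**Figure D1:**
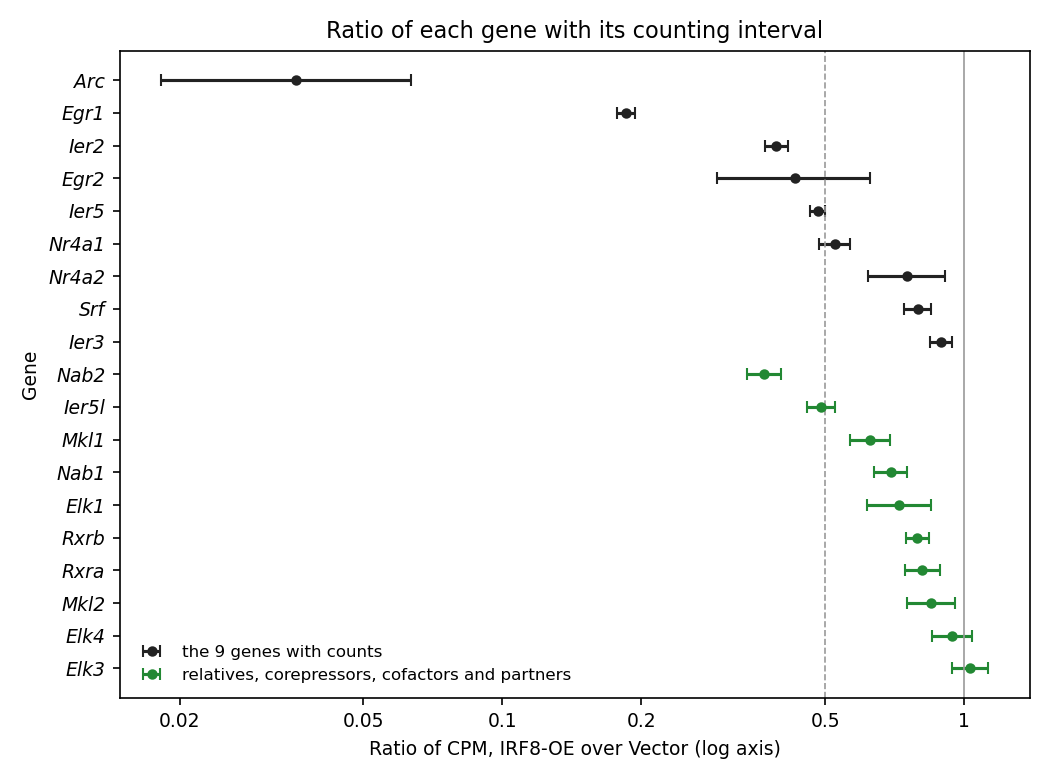
Ratio of CPM, IRF8-OE over Vector, for the 9 genes with counts (black) and for measured relatives, corepressors, cofactors and partners (green), on a log axis. Points are ratios of 1 library to 1 library, bars are exact 95% counting intervals, and lines mark 1 (solid) and 0.5 (dashed). Arc, Egr1, Ier2, Egr2 and Ier5 lie at or below 0.5, and Ier3 lies at 0.891.

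Among the EGR transcription factors, Egr1 was the abundant member. Egr1 (ENSMUSG00000038418, chromosome 18 of mm10, 34859823 to 34864984 on the plus strand) is a zinc-finger factor induced by growth factors. It had 10332 counts in Vector and 2303 in IRF8-OE. The level was 595 CPM in Vector (584 to 607, exact Poisson interval at 95%) and 110 CPM in IRF8-OE (106 to 115). The libraries did not overlap within counting error, and the level in IRF8-OE was 5.40-fold lower (5.16 to 5.65). Of the 12468 measured genes, 49 had a lower ratio than Egr1. Egr2 (chromosome 10, 67535475 to 67542188, plus strand), known as Krox20 for its role in hindbrain and Schwann cells, had 85 counts in Vector and 44 in IRF8-OE. Its level was 4.89 CPM (3.91 to 6.05) in Vector and 2.10 CPM (1.53 to 2.82) in IRF8-OE, which is 2.33-fold lower (1.60 to 3.43). Both libraries held few reads of Egr2, and its interval reaches values short of 2-fold. Egr3 (chromosome 14, 70077203 to 70082614, plus strand), known for its role in muscle spindle development, had 0 counts in each. The limit set by 3 counts is 0.173 CPM in Vector and 0.143 CPM in IRF8-OE. Egr4, the remaining family member, also had 0 counts in both.

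Within each library, Egr1 can be set against other genes without any scaling. Egr1 had 122 times the counts of Egr2 in Vector and 52.3 times in IRF8-OE, so the 2 genes of the family did not differ by the same factor. The ratio of Egr1 was 2.32-fold below that of Egr2 (1.61 to 3.35, from the normal approximation on log counts, as for all quotients of ratios below). Of the corepressors that bind EGR proteins, Nab2, itself an EGR target, had 1802 counts in Vector and 799 in IRF8-OE and was 2.72-fold lower (ratio 0.368, 0.338 to 0.400). Nab1 had 1269 and 1059 counts, a ratio of 0.693 (0.638 to 0.753) that did not reach the rule. Of 12 measured genes reported as EGR1 targets, 2 were lower and 0 higher, with a median log2 ratio of -0.05, beside 3.64% lower and 4.27% higher among all measured genes. The lower genes were Nab2 and the angiogenic factor gene Vegfa, which had 3988 counts in Vector and 1891 in IRF8-OE and was 2.54-fold lower (2.40 to 2.68). The other targets, such as Fn1 (fibronectin, ratio 1.02) and Tgfb1 (ratio 0.835), did not reach the rule.

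The IER genes are named for their rapid induction and do not form a single protein family. Ier2 (ENSMUSG00000053560, chromosome 8, 84661331 to 84662852, minus strand), which encodes a small nuclear protein, had 3674 counts in Vector and 1733 in IRF8-OE. Its level was 212 CPM (205 to 219) in Vector and 82.9 CPM (79.0 to 86.9) in IRF8-OE, 2.55-fold lower (2.41 to 2.70). Ier5 (ENSMUSG00000056708, chromosome 1, 155096361 to 155099636, minus strand), a regulator of the heat shock factor HSF1, had 7912 counts in Vector and 4593 in IRF8-OE. Its level was 456 CPM (446 to 466) in Vector and 220 CPM (213 to 226) in IRF8-OE. At 2.07-fold lower (2.00 to 2.15) it lay just inside the rule. With scaling by total counts Ier5 was 1.91-fold lower and with the expression trend removed 1.88-fold lower, both outside the rule. Its relative Ier5l, with 2209 counts in Vector and 1301 in IRF8-OE, was 2.04-fold lower (1.91 to 2.19). The quotient of the Ier5 and Ier5l ratios was 0.986 (0.912 to 1.07), so the ratios of these relatives were not separable at this depth.

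Ier3 had a ratio much nearer to 1 than Ier2 and Ier5. Ier3 (ENSMUSG00000003541, chromosome 17, 35821684 to 35822923, plus strand), also known as IEX-1, is a regulator of cell survival that responds to NF-kB, p53 and growth factors. It had 2467 counts in Vector and 2647 in IRF8-OE, or 142 CPM (137 to 148) and 127 CPM (122 to 131). The intervals did not overlap, but the ratio of 0.891 (0.843 to 0.942) was the nearest to 1 of the 9 genes, and 4206 measured genes had a lower ratio. With scaling by total counts the ratio of Ier3 was 0.970 and with the expression trend removed 0.952, so its distance from 1 depended on the scaling. Relative to Ier3, the ratio was 2.27-fold lower for Ier2 (2.10 to 2.46), 1.85-fold lower for Ier5 (1.73 to 1.97) and 4.81-fold lower for Egr1 (4.48 to 5.17). In raw counts, Egr1 exceeded Ier3 4.19-fold in Vector and stood at 0.870 of Ier3 in IRF8-OE. These quotients are free of library scaling.

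The NR4A genes encode nuclear receptors that act without a known physiological ligand. Nr4a1 (ENSMUSG00000023034, chromosome 15, 101266846 to 101274792, plus strand), or NUR77, is linked to apoptosis in lymphocytes and to glucose production in liver. It had 1647 counts in Vector and 1040 in IRF8-OE, or 94.8 CPM (90.3 to 99.5) and 49.7 CPM (46.8 to 52.9). The difference of 1.91-fold (1.76 to 2.06) lay just outside the rule. Nr4a2 (ENSMUSG00000026826, chromosome 2, 57106830 to 57124003, minus strand), or NURR1, is needed for midbrain dopamine neurons. It had 228 counts in Vector and 206 in IRF8-OE, or 13.1 CPM (11.5 to 14.9) and 9.85 CPM (8.55 to 11.3). The CPM intervals did not overlap, although the difference was only 1.33-fold (1.10 to 1.62). The ratio of Nr4a1 was 1.43-fold below that of Nr4a2 (1.17 to 1.75). Nr4a3, the third receptor, had 3 counts in Vector and 1 in IRF8-OE.

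Partners and targets of the NR4A receptors were counted as well. The retinoid X receptor genes Rxra (1034 counts in Vector and 1011 in IRF8-OE) and Rxrb (2426 and 2312) had ratios of 0.812 (0.744 to 0.886) and 0.791 (0.747 to 0.838), and Rxrg had 0 counts in both libraries. Of 5 gluconeogenic genes reported as NR4A1 targets in liver, G6pc, Pck1 and Fbp1 had 0 counts in both libraries and Fbp2 had 0 and 4. Eno3, the muscle enolase gene, had 3508 counts in Vector and 3813 in IRF8-OE, a ratio of 0.903 (0.862 to 0.945). This target list was therefore hardly readable in these cells.

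Srf (ENSMUSG00000015605, chromosome 17, 46546839 to 46556162, minus strand) encodes the factor that binds CArG boxes such as those printed above from its own promoter. It had 1760 counts in Vector and 1681 in IRF8-OE, or 101 CPM (96.7 to 106) and 80.4 CPM (76.6 to 84.3). The intervals did not overlap, but the difference of 1.26-fold (1.18 to 1.35) did not reach the rule. The ratio of Egr1, a textbook SRF target, was 4.28-fold below that of Srf (3.95 to 4.64). Of 5 measured SRF cofactors, 0 were lower or higher by the rule, beside 3.64% and 4.27% of all measured genes. Among the ternary complex factors, the ratio was 0.723 (0.617 to 0.846) for Elk1, 1.03 (0.940 to 1.13) for Elk3 and 0.942 (0.853 to 1.04) for Elk4. The actin-regulated coactivator genes Mkl1 (908 counts in Vector and 685 in IRF8-OE) and Mkl2 (548 and 560) had ratios of 0.626 (0.567 to 0.693) and 0.849 (0.753 to 0.956). Myocd, the muscle cofactor, had 0 counts in both.

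Cytoskeletal targets of SRF were read next. Of 12 measured genes on this list, 1 was lower (3.64% of all measured genes) and 0 higher (4.27%), and the median log2 ratio was -0.02. The lower gene was Fhl2, which encodes a LIM-domain cofactor and had 187 counts in Vector and 55 in IRF8-OE, 4.09-fold lower (3.02 to 5.64). Actb and Actg1, the cytoplasmic actin genes, had ratios of 1.09 and 1.11, and Vcl (vinculin) had the highest of the list at 1.40. The 10 genes had been chosen with their ratios known, and the difference between this list and them was not tested.

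Arc had the largest difference of the 10. Arc (ENSMUSG00000022602, chromosome 15, 74669083 to 74672570, minus strand) encodes a regulator of synaptic strength with a domain derived from a retrotransposon Gag protein. It had 279 counts in Vector and 12 in IRF8-OE, or 16.1 CPM (14.2 to 18.1) and 0.574 CPM (0.297 to 1.00). The libraries were far apart, at 28.0-fold lower in IRF8-OE (15.8 to 54.8), and 2 of the measured genes had a lower ratio. Arc passed the filter through the Vector library, since it lay below 1 CPM in IRF8-OE. On the log2(CPM + 1) scale the difference was 10.8-fold, because the pseudocount compresses low values. The ratio of Arc was 5.18-fold below that of Egr1 (2.90 to 9.25).

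Markers of neurons were nearly absent. All 10 neuron markers were below 1 CPM, with at most 10 counts in Vector and 4 in IRF8-OE, and Snap25, Syn1 and Nefm had 0 in both. Of 14 genes linked to activity in neurons, among them the transcription factor genes Mef2a, Mef2c and Mef2d, 7 were measured. Of these 7, 1 was lower (3.64% of all measured genes) and 0 were higher (4.27%), with a median log2 ratio of -0.39. The lower gene was Inhba, an activin subunit gene, with 150 counts in Vector and 81 in IRF8-OE, 2.23-fold lower (1.69 to 2.96). Homer1, a synaptic scaffold gene, had a ratio of 0.586 (0.491 to 0.699) and Vgf, a neuropeptide precursor gene, 0.575 (0.501 to 0.660). Npas4 and Pcsk1 had 0 counts in both libraries. Of 9 genes listed for a domesticated Gag, 5 were found by symbol and all lay below 1 CPM. Pnma1 had 9 counts in Vector and 17 in IRF8-OE, Moap1 had 2 and 1, and Peg10, Rtl1 and Pnma2 had 0 in both.

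**Figure D2:**
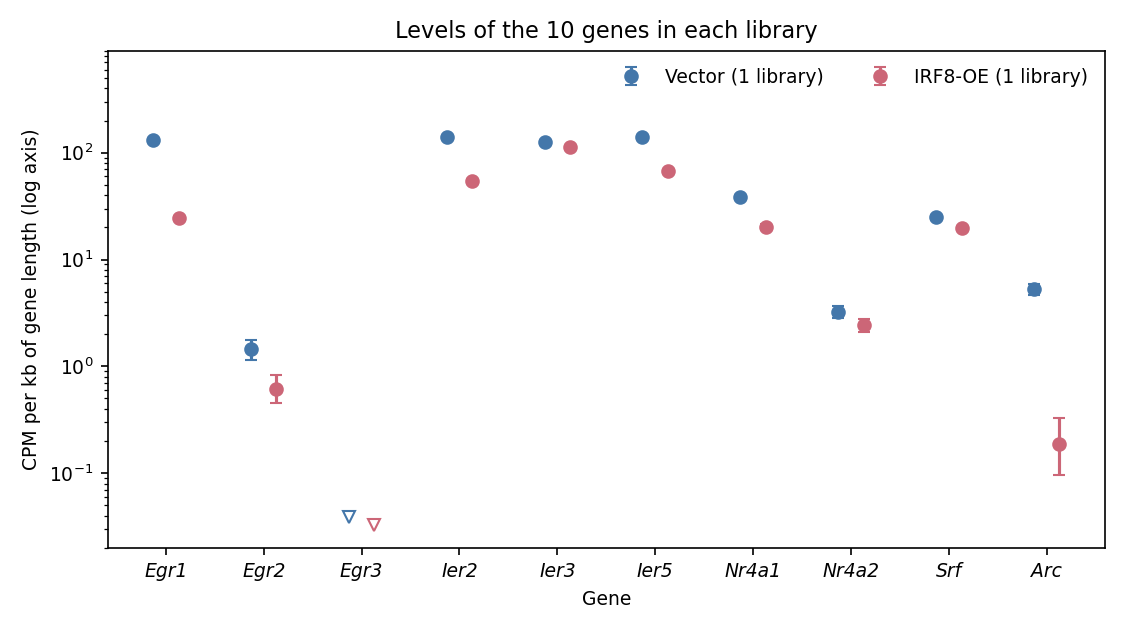
Level of each of the 10 genes as CPM per kb of gene length on a log axis, in Vector (blue) and IRF8-OE (red), 1 library each. Bars are exact Poisson 95% intervals, often smaller than the point, and open triangles mark the limit of 3 counts for Egr3, which had 0. Ier5, Ier2, Egr1 and Ier3 stand at 126 to 139 in Vector and spread from 24.6 to 112 in IRF8-OE.

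Levels of different genes were compared per kb of the gene length listed in the table. In the Vector library, Ier5 (139 CPM per kb), Ier2 (139), Egr1 (133) and Ier3 (126) led, and each one's interval overlapped that of the next. Not all overlapped, since the interval of Ier5 lay above those of Egr1 and Ier3, and that of Ier2 above that of Ier3. Nr4a1 (38.3 CPM per kb), Srf (24.8), Arc (5.26), Nr4a2 (3.23) and Egr2 (1.44) followed, with no overlap between neighbours. In the IRF8-OE library the leading genes lay further apart. Ier3 (112 CPM per kb) stood above Ier5 (67.0), Ier2 (54.5) and Egr1 (24.6), with no overlap between neighbours, and Nr4a1 (20.1) overlapped Srf (19.6). Nr4a2 (2.43 CPM per kb) and Egr2 (0.619) then came before Arc (0.188), which had stood above both in Vector. By ratio, neighbours in the order from Arc to Ier3 were separable for Arc and Egr1, Egr1 and Ier2, Nr4a1 and Nr4a2, and Srf and Ier3. The remaining 4 neighbouring pairs, from Ier2 and Egr2 to Nr4a2 and Srf, had quotients whose intervals included 1.

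**Figure D3:**
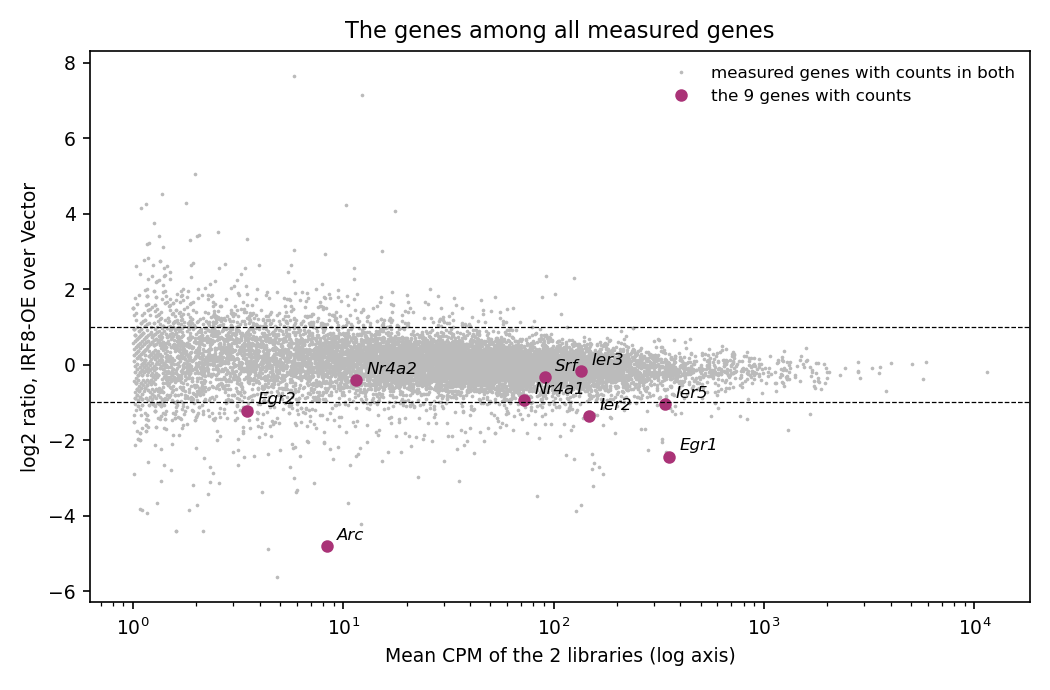
Log2 ratio (IRF8-OE over Vector) against the mean CPM of the 2 libraries (log axis) for measured genes with counts in both libraries (grey) and the 9 genes with counts (purple). Dashed lines mark 2-fold. Arc at -4.81 and Egr1 at -2.43 lie at the lower edge of the cloud, while Nr4a2, Srf and Ier3 lie within it.

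The share of genes called lower depended on level. It was 7.46% for measured genes of 1 to 10 CPM, where Arc and Egr2 lie and both were lower. It was 2.13% for 10 to 100 CPM, where Nr4a1, Nr4a2 and Srf lie and 0 of 3 were lower. It was 2.64% at 100 CPM or more, where 3 of 4 were lower, Ier3 being the exception. At a threshold of 4-fold, Arc and Egr1 were called, beside 0.73% of measured genes. At 1.5-fold, 6 were called, Nr4a1 being added, beside 9.42%. These shares are given beside counts that the choice of genes had fixed, and nothing is read from them.

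Upstream signalling genes were counted by the same rule. Of 17 measured genes of the RAS, ERK, p38 and JNK cascade, 0 were lower or higher. Over all measured genes the shares were 3.64% and 4.27%. The median log2 ratio of the cascade was -0.22, against 0.01 over all measured genes. Its ratios ran from 0.704 (0.674 to 0.735) for Map2k2 to 1.34 (1.22 to 1.46) for Mapk9. Of 8 measured CREB factors and coactivators, 0 reached the rule, and ratios ran from 0.650 for Ep300 to 1.18 for Crem. In lists this short, 0 calls lies near the shares over all genes. Transcript levels do not show the phosphorylation on which the proteins of both lists depend. Among 45 other primary response genes, 43 were measured, 25 were lower and 0 higher, beside 3.64% and 4.27% of all measured genes, with a median log2 ratio of -1.14. This list was also drawn up with earlier results of these libraries known and is not independent evidence. Its lowest ratios belonged to Atf3 (0.0767), Gadd45a (0.171), Dusp2 (0.177) and Cebpb (0.193). Its 1 ratio above 1 was that of the cytokine signalling inhibitor Socs3, at 1.20 (1.09 to 1.31), and Rgs2 and Ptgs2 had 0 counts in both libraries.

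**Figure D4:**
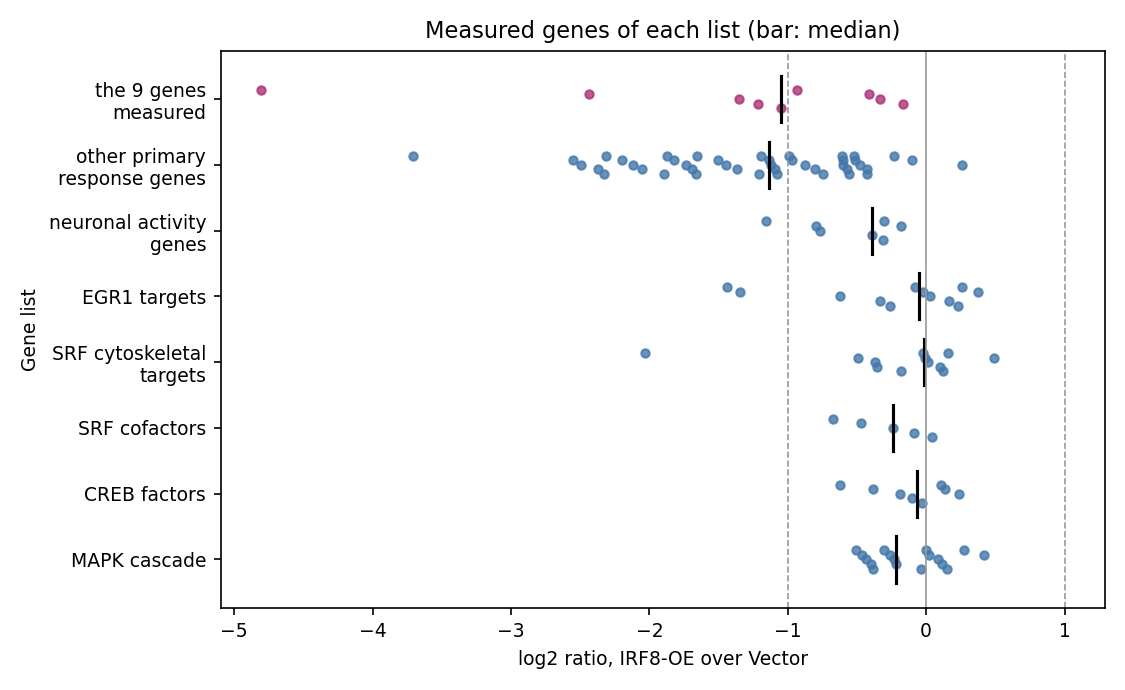
Log2 ratio (IRF8-OE over Vector) of the measured genes of each list, 1 point per gene, with the median as a bar and dashed lines at 2-fold. The 9 genes have a median of -1.05 and the other primary response genes -1.14. The SRF cytoskeletal targets have -0.02, the CREB factors -0.07 and the MAPK cascade -0.22.

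Genes with the most similar pair of levels were sought for Egr1, Ier3, Nr4a1 and Arc among 11122 measured protein-coding genes, as the Euclidean distance of log2 CPM over the 2 libraries. For Egr1 these were Ctgf, a matricellular protein gene (9898 counts in Vector and 2397 in IRF8-OE, distance 0.08), and Maff, a small MAF factor gene (9154 and 2658, distance 0.27). For Ier3 they were Prdx5 and Wbp1l, both at a distance of 0.02. For Nr4a1 they were Hsf1, the heat shock factor gene (1598 and 1082 counts, distance 0.07), and Avpi1 (1632 and 987, distance 0.08). Arc had no near gene, the closest being Cldn2 (188 and 22 counts, distance 1.04) and Dhrs9 (190 and 23, distance 1.09). With 2 libraries, likeness rests on 2 values per gene.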

How the data were processed

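Gene expression was measured by RNA-seq in 1 Vector and 1 IRF8-OE library, made from 3 µg RNA each with the NEBNext Ultra kit, per the labels' protocols. Per the file headers, the deposited table holds raw read counts for each gene with its length and position. HISAT2 2.0.5, featureCounts 1.5.0-p3 and build mm10 are named in the submitters' processing notes. Not given in the sources used here were the annotation release and the handling of strand and multi-mapping reads. Of the 10 genes, only Srf overlapped other annotated genes, Mir6976 (2 counts in Vector and 0 in IRF8-OE) and Gm26904 (0 in both). At most 0.512% of any one's 32-base transcript words occurred in another gene of GENCODE M21.

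Library sizes were scaled with TMM in edgeR 4.0.16 (R 4.3.3), with factors of 0.958 for Vector and 1.04 for IRF8-OE. Ratios carry exact Clopper-Pearson intervals and levels exact Poisson intervals, both at 95% and both for counting error only. Reads copied by PCR are not independent molecules. With 1 library per group edgeR's quasi-likelihood test could not be run, and no p-value is given. The genes, the 17 further lists and the alternatives were chosen with earlier results of these data known. Named genes followed a fixed rule: all 10 genes, their relatives, corepressors, cofactors and partners, up to 4 genes past the rule in longer lists, genes at 0 in both libraries, nearest genes and neighbours. Further list genes were named after their values were seen. Promoter windows came from RefSeq (GRCm38.p6), and exons and untranslated regions from GENCODE M21, both on the build of the table. Gene spans came from the positions in the count table. Size factors for an alternative came from DESeq2 1.42.0, intervals from scipy 1.17.1, the trend from statsmodels 0.14.6, and plots from matplotlib 3.10.9, under Python 3.11.15 with pandas 2.3.3 and numpy 2.4.6.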

Additional observations from a re-analysis of the deposited data

How the results depend on the processing

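Of the 13 alternatives, 6 change only filters, thresholds or intervals and leave every ratio as it was. Under the 7 that change ratios (5 other scalings or centrings, log2(CPM + 1) and trend removal), each of the 9 measured genes kept a ratio below 1. The nearest to 1 was Ier3, at 0.970 with total counts. Arc stayed between 10.8-fold and 30.9-fold lower and Egr1 between 4.89-fold and 5.71-fold lower. Scaling by total counts, which moved the median log2 ratio of all genes from 0.01 to 0.13, left 4 of the 9 genes past the rule and moved their median from -1.05 to -0.93. Removal of the expression trend left 4 and a median of -0.91, and log2(CPM + 1) left 4 and a median of -0.93. A filter at 5 CPM removed Egr2 and left 4 of the 8 remaining genes past the rule, with a median of -0.99. Ier5 dropped out under total counts and trend removal, and Egr2 under log2(CPM + 1). At 4-fold, 2 of the genes, 91 lower and 69 higher measured genes and 10 lower genes of the regulator, target and response lists (30 at 2-fold) were called. The counts over all measured genes, 454 lower and 532 higher, became 1175 and 1302 at 1.5-fold, 800 and 873 with no filter, 266 and 221 with a filter at 5 CPM, and 300 and 275 with log2(CPM + 1). With each chromosome's median removed, Nr4a1 was 1.53-fold lower. DESeq2 size factors, upper quartile scaling, housekeeping scaling, no filter, a stricter interval and protein-coding genes alone left 5 genes past the rule. Housekeeping genes of that scaling had a median log2 ratio of -0.03. Of the 15 measured, 0 were lower or higher, beside 3.64% and 4.27% of all measured genes. No paired analysis was possible because each group had 1 library. Depth limited the statements on Egr2, Egr3, Nr4a2 and Arc, which had at most 279 counts in either library.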

Other observations

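The surroundings of Arc and Nr4a1 on chromosome 15 were read in the table, because measured protein-coding genes of that chromosome had a median log2 ratio of -0.31, the lowest of the chromosomes that carry the 10 genes. Of the 10 nearest measured protein-coding genes around Arc, 5 on each side, 1 was lower and 0 higher, with a median ratio of 0.846. Over all measured genes 3.64% were lower and 4.27% higher, and 6.55% of measured protein-coding genes of chromosome 15 were lower. The 5 at lower coordinates lay 910 to 1484 kb from Arc, and the 5 at higher coordinates 29.7 to 282 kb. The lower neighbour was Psca, prostate stem cell antigen, 42.3 kb from Arc, with 99 counts in Vector and 22 in IRF8-OE, 5.42-fold lower (ratio 0.185, 0.111 to 0.295). Jrk, 29.7 kb from Arc and between Arc and Psca, had 300 and 265 counts, a ratio of 0.734 (0.619 to 0.868), and Them6 beyond Psca had a ratio of 0.836. The other neighbours, Ago2, Ptk2, Dennd3, Slc45a4, Ptp4a3, Lynx1 and Ly6e, had ratios between 0.762 and 1.06.

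Around Nr4a1 most neighbours did not reach the rule. Krt76, a keratin gene and the farthest of them, was lower with 53 counts in Vector and 3 in IRF8-OE, a ratio of 0.0470 (0.00940 to 0.145). It passed the filter through the Vector library (3.05 CPM), since its 0.143 CPM in IRF8-OE is the limit set by 3 counts. Krt80 was higher with 36 and 102 counts, or 2.07 and 4.88 CPM, a ratio of 2.35 (1.59 to 3.54). Krt7 (ratio 1.72) and Krt5 (0.671) did not reach the rule. Atg101, the nearest, had 1410 and 1236 counts, a ratio of 0.728 (0.674 to 0.786), and Grasp, Acvr1b, Acvrl1, Fignl2 and Scn8a had ratios from 0.809 to 1.44. By the rule 1 of the 10 was lower and 1 higher, beside 3.64% and 4.27% of all measured genes, and their median ratio was 0.965. They lay 9.51 to 610 kb from Nr4a1.

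Of 7 myeloid markers found as a single row, 4 were measured and 0 reached the rule. Over all measured genes 3.64% were lower and 4.27% higher. The measured ones were Cd14 (723 counts in Vector and 636 in IRF8-OE), Cd68 (194 and 160), Csf1r (161 and 186) and Lyz2 (41 and 57). Ptprc had 7 and 5 counts, Adgre1 had 0 in both, and Spi1, below the filter, had 17 and 2. The summed level of these 7 was 65.8 CPM in Vector and 50.02 CPM in IRF8-OE. Of 10 endothelial and fibroblast markers, 4 were measured. Vwf (50 counts in Vector and 23 in IRF8-OE) was lower and Col1a1 (21 and 67) higher. Both had few reads and lie at 1 to 10 CPM, where 7.46% of measured genes were lower. Dcn, the decorin gene of that list, was abundant in both libraries, with 13892 counts in Vector and 18904 in IRF8-OE. The summed level of that list was 817 CPM in Vector and 918 CPM in IRF8-OE, of which Dcn alone gave 800 and 904 CPM. Pdgfra (218 and 195 counts) did not reach the rule. The other fibroblast markers Col1a2 (0 and 1), Col3a1 (0 and 2) and Pdgfrb (0 and 2) were nearly absent. The endothelial markers Pecam1 (6 and 7), Cdh5 (6 and 2) and Kdr (1 and 1) were also below the filter. The part of these markers in the results was not tested.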
